A study of Homo sapiens with 4 samples.

Results

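FOSL1 encodes Fra-1, a Fos-family subunit of the transcription factor AP-1, so at this locus the ChIP for Fra-1 reads the protein on its own gene. The locus was taken as all deposited peaks that overlap chromosome 11, 65640000 to 65700000 in hg19. This window was set by position, with earlier results of these data known. It held 42 of the 57601 peaks in the 4 lists of the series, 18 of them Fra-1 peaks called over input, 7 Fra-1 peaks called over IgG and 17 DDX5 peaks called over input. The DDX5 list over IgG, with 61 peaks in all, held 0 peaks there. By the same rule FOSL1 lies near 65659500 to 65668000, and the promoters of C11orf68 and DRAP1 lie near 65686600. Peaks were placed by their summits relative to these approximate positions. C11orf68 is read from the reverse strand, toward FOSL1, so peaks placed between FOSL1 and the C11orf68 promoter may lie inside C11orf68. Exons, introns and UTRs in hg19 were not analysed here.

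The libraries came from untreated BT549 cells, a human breast cancer line without oestrogen receptor alpha: 1 ChIP with an antibody to Fra-1, 1 with an antibody to DDX5, 1 control ChIP with rabbit IgG, and 1 library of input DNA, which is sonicated chromatin without immunoprecipitation. All 4 shared the same line and medium, and no perturbation was applied. No antibody has a replicate library, so nothing below could be tested and every difference is a description of these libraries. Total read depths are unknown. From the pileups at shared summits, the IgG library has 0.884 times the depth of Fra-1 and 0.998 times the depth of DDX5. The study set out to separate binding events of Fra-1, of DDX5 and of both. The lists over input hold peaks of each kind at the locus. None of the DDX5 peaks there was called over IgG, where 0.508% of the whole DDX5 list over input was.

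AP-1 is a dimer of a Fos-family and a Jun-family protein, or of Jun and ATF proteins, that binds TGACTCA-like sites through its basic leucine zipper. FOSL1 is a known target of AP-1, with regulatory sequence in its promoter and first intron, and the gene is read from the reverse strand, so that its 5′ end is the end with the higher coordinate. DDX5, an RNA helicase of the DEAD-box family, works in RNA processing and as a transcriptional coactivator and is not known to recognise a DNA sequence. In the RefSeq gene order (GRCh38.p14, used for names and order only), CFL1, MUS81, EFEMP2, CTSW, FIBP and CCDC85B precede FOSL1, and C11orf68, DRAP1, TSGA10IP and SART1 are the protein-coding genes after it. DRAP1 is the alpha subunit of negative cofactor 2, which represses transcription by holding TBP, the TATA-binding protein, on promoters. C11orf68 encodes a protein of little-known function.

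The highest Fra-1 fold over input in the window lay where C11orf68 and DRAP1 start, so the 250 bases before each of these starts are shown, from RefSeq in GRCh38.p14, with GGGCGG, the GC box bound by Sp-family factors, in capitals on either strand. Of the 3 genes, C11orf68 and DRAP1 matched the promoter table. The C11orf68 stretch is chr11:65919063-65919312 on the minus strand and the DRAP1 stretch chr11:65919176-65919425 on the plus strand, both in GRCh38.p14 and not comparable with the hg19 peak positions.
C11orf68: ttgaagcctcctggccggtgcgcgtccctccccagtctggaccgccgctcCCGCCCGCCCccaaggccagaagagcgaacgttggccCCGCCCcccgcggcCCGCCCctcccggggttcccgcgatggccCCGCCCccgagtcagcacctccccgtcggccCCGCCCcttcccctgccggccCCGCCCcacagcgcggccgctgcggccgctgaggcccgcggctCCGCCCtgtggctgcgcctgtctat
DRAP1: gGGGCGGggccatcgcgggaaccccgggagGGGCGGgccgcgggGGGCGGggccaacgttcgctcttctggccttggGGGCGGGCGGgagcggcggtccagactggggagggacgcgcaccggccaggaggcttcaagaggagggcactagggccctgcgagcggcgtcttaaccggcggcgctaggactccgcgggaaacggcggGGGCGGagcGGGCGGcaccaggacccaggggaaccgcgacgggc

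The genes are divergent, and the first 137 bases of the C11orf68 stretch are the reverse complement of the first 137 of the DRAP1 stretch, so part of the sequence serves as the upstream region of both. Searched on both strands, the AP-1 motif TGANTCA, which includes the stricter TGACTCA, had 0 matches in either stretch, and so did the ATF-type motif TGACGTCA. Of all 35116 RefSeq promoters, 6.57% held TGANTCA and 1.65% held TGACGTCA in the same 250 bases. GGGCGG had 8 matches before C11orf68 and 7 before DRAP1, and some of these overlap or lie in the shared bases. It was present in 42.6% of all promoters. The TATA-box letters TATAAA, present in 10.7% of promoters, and the CCAAT box, present in 32.0%, had 0 matches in both stretches. The full 300-base promoter records, which run past the start, held 1 TATAAA match for C11orf68 and 0 for DRAP1. The G and C content was 79.2% for C11orf68 and 77.6% for DRAP1, against a median of 58.0% over all promoters, and the stretches held 32 and 33 CG dinucleotides against a median of 11. Of 13 AP-1 family genes listed for background, 10 had a promoter in the table, 0 of these 10 held TGANTCA, and JUND held the single TGACGTCA. These matches describe letters in a window and show neither binding nor its absence. The Fra-1 peak at the promoters is 804 bp wide, and its whole sequence was not searched.

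Peaks were dense at the locus. Of 2236 consecutive stretches of 60 kb along chromosome 11, of which the window is one, 3 held 18 or more Fra-1 peaks over input and 2 held 17 or more DDX5 peaks over input. Over chromosomes 1 to 22 and X, 8 and 11 of 50551 stretches did, and the median stretch held 0 peaks in either list. Of the 2236 stretches, 4 held 7 or more Fra-1 peaks over IgG. When Fra-1 peaks over IgG at most 12.5 kb apart were joined, the 7 peaks formed a single group of 20.2 kb, and 32 of the 10576 groups of that list were as full or fuller. The peaks ended abruptly after the DRAP1 promoter: the next Fra-1 peak over input started 42.0 kb further on (4.46-fold), the next DDX5 peak 41.7 kb further on (4.35-fold), and the next Fra-1 peak over IgG 416.8 kb further on. On the other side the peaks over input continued past the window's edge, with the nearest Fra-1 peak 3.38 kb and the nearest DDX5 peak 12.0 kb before the first in the window. The Fra-1 peaks over IgG did not: the nearest ended 236.0 kb before the first in the window.

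**Figure D1:**
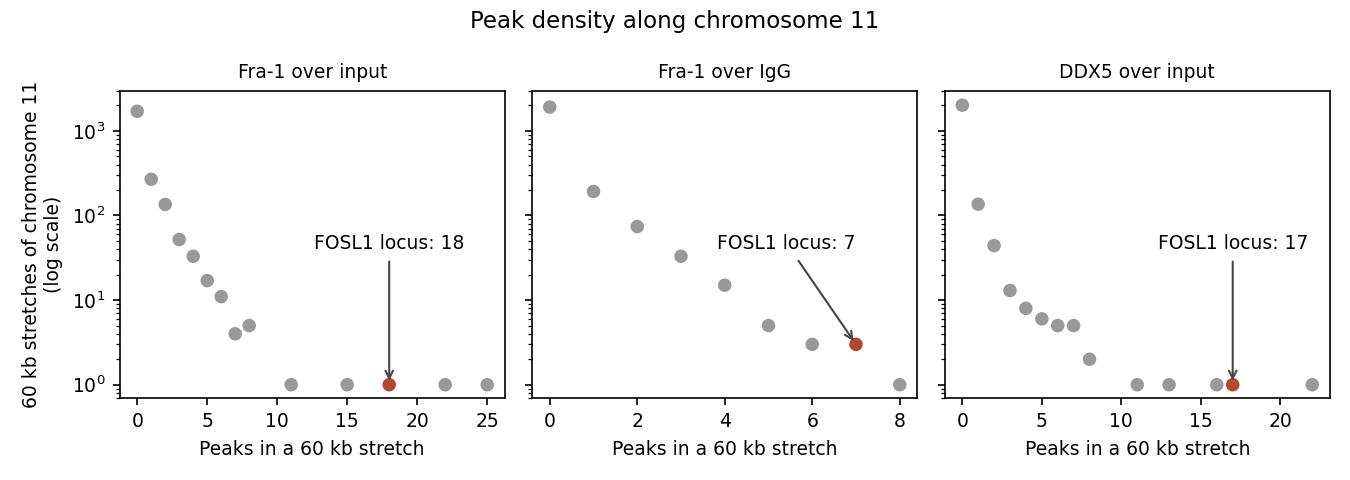
Number of 60 kb stretches of chromosome 11 (log scale) against the number of peaks in the stretch, for the lists of DDX5 over input and of Fra-1 over input and over IgG. Grey points count stretches, and the red point is the class that the FOSL1 locus falls in, with 17 DDX5 peaks and 18 and 7 Fra-1 peaks; most stretches held 0.

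The fold enrichment of a peak is the authors' ratio of the ChIP level to the control level at the summit, and the pileup is their count of ChIP fragments over the summit. Fra-1 folds over input ranged from 2.74 to 49.7 in the window, with a median of 4.06 against 5.37 over the whole list. By fold over input the typical Fra-1 peak here was thus no stronger than elsewhere, and a few were among the strongest of the genome. Of the 18 peaks 6 reached 8-fold (33.3%, where 29.5% of the list did). DDX5 folds over input ranged from 2.76 to 16.5 with a median of 4.37, against 4.16 over its list, and 2 of 17 peaks (11.8%) reached 8-fold, where 2.28% of the list did.

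**Figure D2:**
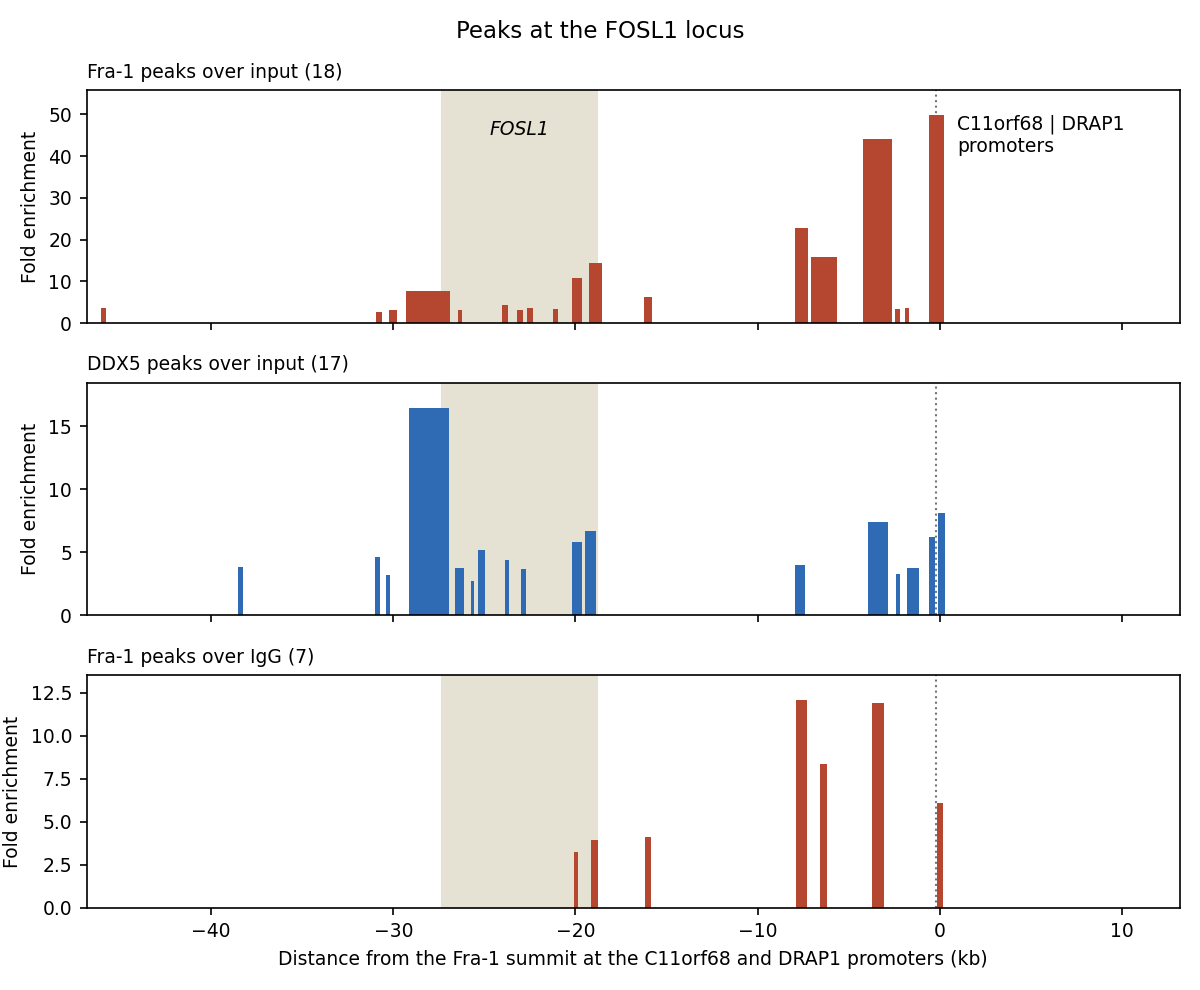
Fold enrichment (vertical axes, each with its own scale) of the peaks in the window for Fra-1 over input, DDX5 over input and Fra-1 over IgG, against distance in kb from the Fra-1 summit at the C11orf68 and DRAP1 promoters. Each bar spans a peak's width, the shaded band is the approximate extent of FOSL1 and the dotted line the approximate place of the promoters. The highest Fra-1 bars over input stand at the right, up to 49.7-fold, and the highest DDX5 bar, 16.5-fold, at the 3′ side of FOSL1.

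Within FOSL1 itself, Fra-1 peaks over input had their highest folds at the 5′ end. At the 5′ end of the gene, the peak at 65667564 to 65668261 reached a pileup of 83 fragments and 14.4-fold enrichment. Just inside the gene, the peak at 65666664 to 65667198 reached 58 fragments and 10.8-fold. The other 5 Fra-1 peaks with a summit in FOSL1 had folds of 3.16 to 4.38 and pileups of 13 to 19. DDX5 folds in the gene were also highest at the 5′ end: its peak at 65667342 to 65667962 reached 30 fragments and 6.73-fold, and that at 65666652 to 65667197 reached 27 fragments and 5.86-fold. The other 5 DDX5 peaks in FOSL1 had folds of 2.76 to 5.16, the highest of them at 65661491 to 65661864, where no Fra-1 peak was listed.

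The strongest Fra-1 sites lay upstream of FOSL1, between it and the C11orf68 and DRAP1 promoters. The peak at the promoters, 65686254 to 65687057, reached 199 fragments and 49.7-fold, rank 5 of 30571 by fold. The peak at 65682634 to 65684186 had the higher pileup, 214 fragments, and 44.1-fold enrichment, rank 18. The 2 further sites at 65678859 to 65679612 and 65679773 to 65681178 had pileups of 108 and 122 and folds of 22.7 and 15.8. On chromosome 11 the first 2 of these 4 ranked 1 and 2 of all Fra-1 peaks over input. The other 3 summits lay 3.48, 6.39 and 7.73 kb from the summit at the promoters. A weaker site stood nearer to FOSL1, at 65670599 to 65671037, with 30 fragments and 6.36-fold. The remaining 2 peaks of the stretch, at 65684371 and 65684937, had folds of 3.30 and 3.65.

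The 3 Fra-1 peaks over input with the next higher folds in the genome, on chromosomes 4, 5 and 6, had 50.7-fold to 55.9-fold enrichment, and the 3 next lower, on chromosomes X, 18 and 1, had 47.2-fold to 49.0-fold. All 6 were also listed over IgG, at 12.6-fold to 33.8-fold, and 3 of the 6 overlapped a DDX5 peak over input. The peak at the C11orf68 and DRAP1 promoters had 6.10-fold over IgG, below each of these 6.

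Against IgG, the order of the Fra-1 sites changed. Of the 18 peaks over input, 7 were called again over IgG (38.9%, 95% exact binomial interval 17.3% to 64.3%, where 50.5% of the list were). The interval treats neighbouring peaks as independent, which they are not. It gives no spread between libraries and is no test against the share of the list. The 7 included all 6 that reached 8-fold (97.6% of such peaks in the list were). The summits of the same site in the 2 lists lay 0 to 3 bp apart, and the pileups differed by the depth factor alone, so the folds differ through the control. The site at 65678928 to 65679548 was highest over IgG, with 12.1-fold, the site at 65683121 to 65683762 had 11.9-fold and the site at 65680252 to 65680651 had 8.38-fold. In the whole list over IgG these 3 ranked 2430, 2530 and 5797 of 16133 by fold. The promoter site, first over input, was the fourth over IgG with 6.10-fold, rank 9436. The 2 sites in FOSL1 were lowest, with 3.92-fold at the 5′ end and 3.27-fold inside the gene, below the site at 65670654 to 65670952 with 4.13-fold. They ranked 14457 and 15491 of 16133, near the bottom of that list. The median fold of the IgG list was 6.82, and 3 of the 7 (42.9%) reached 8-fold, where 38.8% of the list did.

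**Figure D3:**
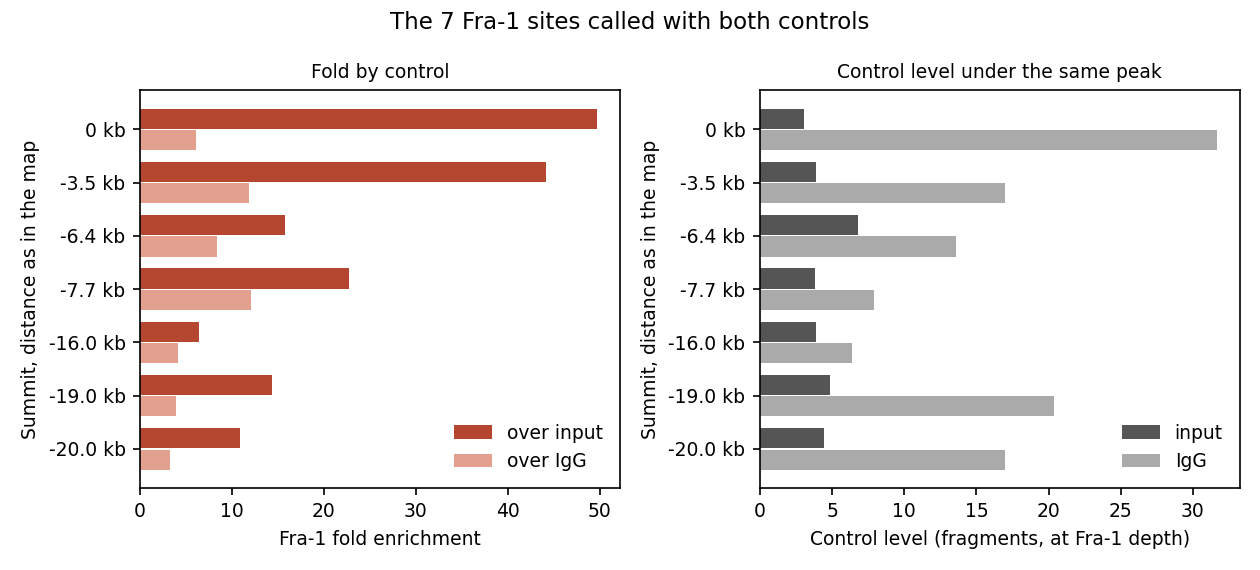
The 7 Fra-1 sites called with both controls, ordered by distance in kb from the summit at the C11orf68 and DRAP1 promoters. Left, Fra-1 fold enrichment over input and over IgG; right, the control level in fragments under the same summit, input and IgG, brought to the depth of the Fra-1 library. At 0 kb the fold was 49.7 over input and 6.10 over IgG, where the IgG level was 31.7 and the input level 3.02.

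The control levels behind these folds were computed from the lists: 1 was added to the pileup, the sum was divided by the fold, and 1 was taken off. Under the promoter site the IgG level was 28.0 fragments, at or above that of 99.9% of the Fra-1 peaks over IgG, while the input level was 3.02, the lowest the Fra-1 list over input holds. That lowest value is the background assumed for the whole genome, so the local input level may be lower. At the depth of the Fra-1 library the IgG level is 31.7, at least 10.5 times the input level. The IgG level was 18.0 at the 5′ end of FOSL1, 15.0 at the site inside the gene, and 15.0 at 65683121, which are 4.21, 3.81 and 4.38 times the input level at equal depth. It was 12.0, 7.0 and 5.66 at the sites starting at 65680252, 65678928 and 65670654, or 2.0, 2.09 and 1.65 times the input level. The IgG library was thus itself higher at the promoters, at both FOSL1 sites and at 65683121 than at the other 3 sites. The part of this background in the Fra-1 and DDX5 pileups was not tested.

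The fold over input divided by the fold over IgG was 8.15 at the promoter site, 3.71 at 65683121, 3.67 at the FOSL1 5′ end, 3.31 inside FOSL1 and 1.54 to 1.89 at the other 3 sites. Over the 14372 Fra-1 sites with the same summit in both lists, to within 10 bp, the median of this ratio was 1.27 (interquartile range 0.995 to 1.68), and 95% lay at or below 2.55. All 7 sites were above that median, and 4 were above the 95% value.

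Many peaks of the locus overlapped between the antibodies when both were called over input, by a count that depends on the overlap rule. Of the 18 Fra-1 peaks 13 overlapped a DDX5 peak by at least 1 bp (72.2%, 95% exact binomial interval 46.5% to 90.3%), where 21.8% of the list did. With centres within 100 bp 7 of 18 did (38.9%), and with both lists at 8-fold or more 1 of 6 (16.7%). Whole-list shares under these stricter rules were not computed, so neither value can be set beside 21.8%. Only 2.28% of the DDX5 list reached 8-fold. Of the 17 DDX5 peaks 14 overlapped a Fra-1 peak (82.4%), where 61.8% of the list did. Of the 7 Fra-1 peaks over IgG, 5 overlapped a DDX5 peak over input (71.4%, where 8.68% of that list did). Both lists over input rest on the same input library, and neighbouring peaks are not independent. The interval therefore gives no spread between libraries and is no test against the share of the list. The DDX5 peaks covered 8.99 of the 60 kb. Fra-1 peaks over input had a median width of 398 bp here, against 317 bp over the list. Overlap by 1 bp rises with peak density and width, and their part in these shares was not tested. The Fra-1 sites without DDX5 included 65679773 to 65681178 (15.8-fold) and 65670599 to 65671037 (6.36-fold), both also called over IgG. Summits of the 14 overlapping pairs lay 10 to 550 bp apart, with a median of 120 bp, and 5 of 14 (35.7%) were within 100 bp, against 57.1% of the 7062 pairs in the whole lists.

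By fold over input, the highest DDX5 peak lay at the 3′ side of FOSL1 and the highest Fra-1 peak at the C11orf68 and DRAP1 promoters; by pileup the highest Fra-1 peak was at 65682634, and by fold over IgG at 65678928. The highest DDX5 peak, at 65657697 to 65659862, was 2.17 kb wide, with 72 fragments and 16.5-fold enrichment, rank 33 of 10836 by fold and rank 2 on chromosome 11. Its summit, 65658776, lay on the 3′ side of FOSL1, where CCDC85B is the next gene. The hg19 position of CCDC85B was not analysed, so the peak may lie on that gene. The Fra-1 peak there, 65657552 to 65659929, reached 37 fragments and 7.80-fold, with its summit 550 bp away, and it was not called over IgG. At equal depth the DDX5 pileup was 2.20 times that of Fra-1, and in 0.892% of all overlapping pairs was Fra-1 as low or lower relative to DDX5. Depth scaling leaves differences between the antibodies uncorrected, so such ratios are not relative occupancies. The other 3 Fra-1 peaks on that side of FOSL1 had folds of 2.74 to 3.73, and the other 3 DDX5 peaks 3.21 to 4.66. At the opposite end, at the C11orf68 and DRAP1 promoters, 2 DDX5 peaks overlapped the Fra-1 peak. One, at 65686239 to 65686588, had 22 fragments and 6.25-fold, and the other, at 65686720 to 65687116, had 35 fragments and 8.12-fold. Their summits lay 370 bp before and 76 bp after the Fra-1 summit, and the Fra-1 pileup was 8.02 and 5.04 times theirs at equal depth.

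At equal depth the Fra-1 pileup was 1.90 and 2.45 times the DDX5 pileup at the 2 sites of the FOSL1 5′ end, 4.79 times at 65678859 and 5.75 times at 65682634. In the other 8 pairs, all with Fra-1 pileups of 13 to 37, it was 0.456 to 1.16 times. These ratios too leave differences between the antibodies uncorrected. The DDX5 peak at 65682914 to 65683997, at the Fra-1 site with the highest pileup, reached 33 fragments and 7.38-fold. The other 3 DDX5 peaks between FOSL1 and the C11orf68 and DRAP1 promoters had folds of 3.26 to 3.97.

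**Figure D4:**
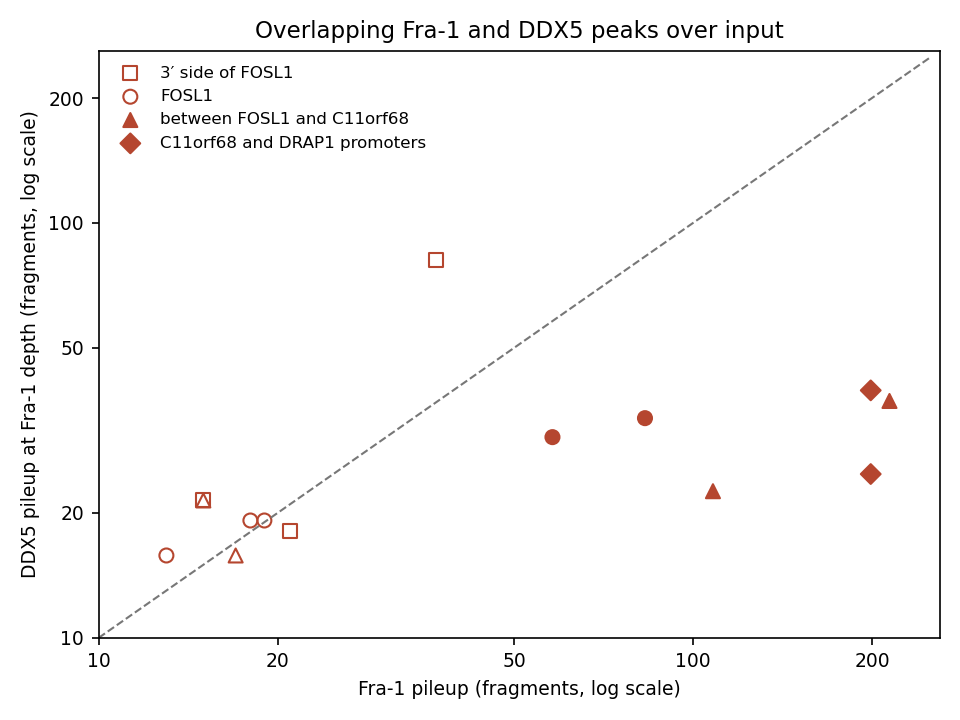
DDX5 pileup, brought to the depth of the Fra-1 library, against Fra-1 pileup at the 14 overlapping pairs of peaks over input (both axes in fragments, log scale; the dashed line marks equal pileups). Marker shapes give the place of the pair, and filled markers are pairs whose Fra-1 peak was also called over IgG. The place between FOSL1 and C11orf68 reaches to the C11orf68 promoter and may include peaks inside C11orf68. The open square at a Fra-1 pileup of 37 is the DDX5 peak on the 3′ side of FOSL1.

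None of the 17 DDX5 peaks over input was called over IgG, where 0.508% of the DDX5 list was, including 13.0% of its peaks of at least 8-fold. At 5 of them the IgG level is known from the overlapping Fra-1 peak over IgG, at a summit 66 to 188 bp away. Brought to the depth of the IgG library, the DDX5 pileup plus 1 was 1.24 times the IgG level plus 1 at the promoters, 1.63 times at the FOSL1 5′ end, 1.75 times inside FOSL1, 2.12 times at 65682914 and 2.62 times at 65678887. The median over all 1430 such pairs was 2.0 (interquartile range 1.62 to 2.49). The lowest fold that the deposited DDX5 list over IgG holds is 1.62, and its median is 3.05. A call also depends on the pileup, so 1.62 is not a calling threshold for these sites. The IgG level at the 16.5-fold DDX5 peak on the 3′ side of FOSL1 is not known, since neither list over IgG has a peak there. Among the 6 DDX5 peaks with the nearest folds in the genome, 15.6-fold to 16.9-fold, 1 was called over IgG, at 2.38-fold, and each of the 6 had a Fra-1 peak over input on it.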

How the data were processed

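The 4 deposited peak lists compare 1 ChIP library each with 1 control library. The submitters' processing notes name CASAVA 1.8, Bowtie 0.12.9, HOMER and hg19; the peak caller is not given in the sources used here. Per the file headers, the deposited values are a pileup signal at the summit and a fold enrichment, a ratio. The deposited lists over IgG have pileups scaled down to the IgG library. The authors' 2 columns of −log10 values have unreadable header cells; the first matched the −log10 p-value of a Poisson tail of the pileup, and the other, always below it, was treated as a −log10 q-value.

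Members, lists and comparisons were chosen with earlier results of these data known. The rule names every peak in the window and, beside the highest Fra-1 and DDX5 peak over input, the 3 next higher and lower folds. Ranks were taken within a list. The GC-box, TATA-box and CCAAT-box motifs, the fold ratios and the DDX5 to IgG ratios were added after the data were seen. Alternatives were other thresholds, overlaps, windows, rankings, controls and motifs. The overlap code was tested on simulated data and recovered 1600 of 1600 planted overlaps. The tools were matplotlib 3.10.9, scipy 1.17.1, pandas 2.3.3 and numpy 2.4.6 under Python 3.11.15.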

Additional observations from a re-analysis of the deposited data

How the results depend on the processing

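Of 36 alternatives, 17 stayed within 1.5 times of a count or within the interval of a share or percentile, and 19 moved. The IgG control level was counted as moved without such a limit. Several outcomes were fixed in advance, since the DDX5 list over IgG holds 0 peaks in the window and TGACTCA is part of TGANTCA, which had 0 matches. The tally is therefore no measure of robustness. At 8-fold the window held 6 Fra-1 peaks over input, 3 over IgG and 2 DDX5 peaks over input, and at or above the median −log10 q 8, 4 and 8, fewer by construction. The 20 kb extension gave 25 Fra-1 and 25 DDX5 peaks over input and left 7 and 0 over IgG. The share of Fra-1 peaks with DDX5, 72.2%, became 38.9% with centres within 100 bp, 0.0% with both lists over IgG and 16.7% at 8-fold in both. Whole-list shares under these overlap rules were not computed. The share called again over IgG, 38.9%, became 100% at 8-fold. By −log10 q, by pileup and by fold on chromosome 11, the percentile of the highest Fra-1 peak over input, 99.99, became 99.87, 99.22 and 100, and that of the highest over IgG, 84.9, became 87.8, 87.5 and 85.9. For DDX5, 99.7 became 99.57 by −log10 q and 98.4 by pileup. The median control level at the 7 sites was 3.87 for input and 15.0 for IgG. The absence of replicates and of total read depths limits each value. No paired analysis was possible because each antibody has 1 library.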
